A study of Mus musculus with 2 samples.

Results

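The 9 genes described here belong to the phagocyte NADPH oxidase or to the handling of superoxide and peroxide. They are Cybb, Cyba, Ncf1, Ncf4, Rac1, Rac2, Hvcn1, Sod2 and Cat. They were taken by symbol from the 34745 Ensembl genes listed for each of 2 mouse RNA sequencing libraries, and all 9 were found. One library is labelled Kdm2b-KO (genotype Kdm2b-/-) and the other WT (wild type), with 1 library each. Both came from peritoneal macrophages of the C57BL/6 strain and both groups were treated alike. Thioglycollate, a broth that recruits macrophages to the peritoneal cavity, had been injected 4 days before the harvest, and the cells then received lipopolysaccharide (LPS) at 100 ng/ml. The time in LPS stands as 4 h in one label and as 3 h in another. The sex and age of the mice, the cells in which Kdm2b was deleted and any pooling of animals do not appear in the labels used here. No library without LPS was used here, so the values are levels under LPS and not responses to it.

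The phagocyte oxidase passes electrons from cytosolic NADPH across a membrane to oxygen and so makes superoxide for killing microbes. Its catalytic core is a membrane heterodimer of the proteins encoded by Cybb and Cyba, and it stays silent until cytosolic subunits and a Rac GTPase join it. The charge that the electrons carry is offset by protons leaving through the channel encoded by Hvcn1. Superoxide is turned into hydrogen peroxide by dismutases, of which Sod2 encodes the mitochondrial one, and catalase splits the peroxide into water and oxygen. Kdm2b encodes a histone demethylase of a variant Polycomb complex, whose zinc finger binds unmethylated CpG-rich DNA.

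The low FPKM values (fragments scaled to transcript length and to library size) fell on whole multiples of a step, which put the depth at about 26800000 fragments in the library labelled Kdm2b-KO and 27300000 in the WT library. Kdm2b itself was not lower where the label says it was lost: it stood at 0.326 FPKM in the library labelled Kdm2b-KO and at 0.205 FPKM in the WT library, about 45 and 29 fragments. The 95% counting interval of its log2 FPKM ratio ran from -0.05 to 1.39, and it shares its strand with 2 overlapping gene models. A gene-level value cannot show a deleted exon, so each direction below is that of a label and not of a checked genotype. With 1 library per group the spread between animals is unmeasured, and no p-value is given.

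None of the 9 genes was 1.5-fold apart between the libraries. Ratios are given as log2 of (FPKM + 1) in the library labelled Kdm2b-KO over (FPKM + 1) in the WT library, which understates the difference of low genes. Of the 9 members, 0 were higher and 0 lower by 2-fold or more, beside 0.863% higher, 1.02% lower and 1.88% in either direction among the 9038 genes whose mean reached 1 FPKM. At 1.5-fold, 0 were higher and 0 lower, beside 4.7% higher, 2.8% lower and 7.5% in either direction. Few genes of any kind were that far apart, so these counts are near the background. The members' median log2 ratio was 0.08, against 0.10 over all genes past that floor, whose SD was 0.36. All 9 lay within 1 SD of the all-gene median, with 4 above it and 5 below. Scaling the library labelled Kdm2b-KO by 0.915, which brings the median of all genes to 0, moved the members' median to -0.045.

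**Figure D1:**
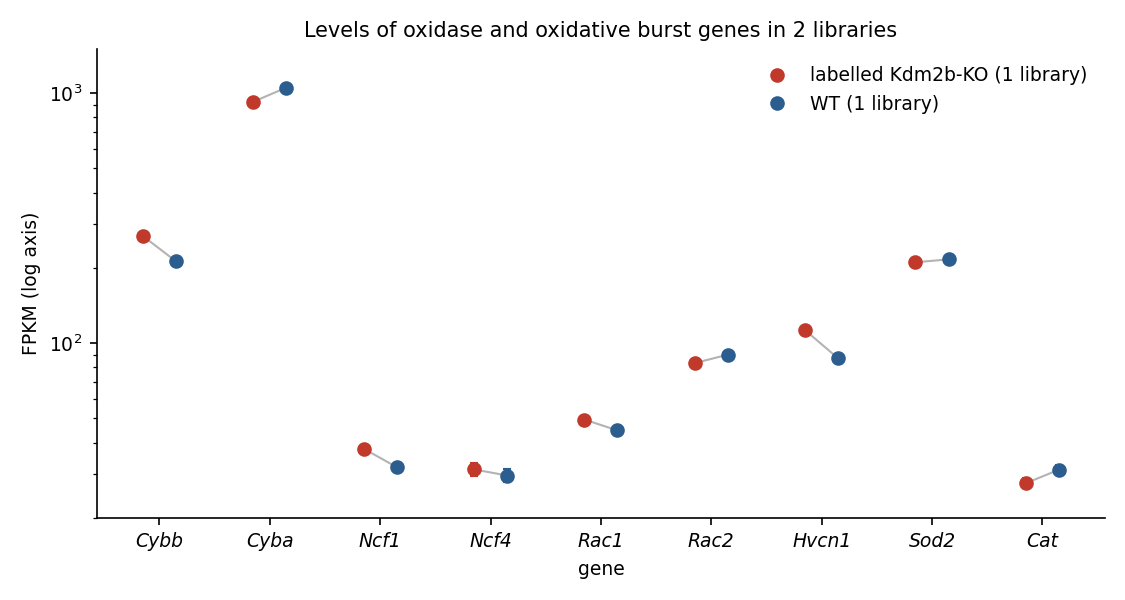
FPKM (log axis) of the 9 genes in the library labelled Kdm2b-KO (left point of each pair) and in the WT library (right point), with 1 library each; bars are exact Poisson 95% intervals for counting error and are mostly smaller than the points. Cyba is the most abundant gene in both libraries, Cybb and Hvcn1 are higher in the library labelled Kdm2b-KO, and every pair is less than 1.5-fold apart.

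All 9 genes were well expressed. The lowest position of any member was the 83.6th percentile among genes past the floor, held by Cat in the library labelled Kdm2b-KO, and the estimated fragments behind a value ran from 1180 to 34603. In the library labelled Kdm2b-KO the order of FPKM levels, which are per length, was Cyba, Cybb, Sod2, Hvcn1, Rac2, Rac1, Ncf1, Ncf4 and Cat, and 0 of the 8 neighbouring pairs had overlapping 95% counting intervals. In the WT library it was Cyba, Sod2, Cybb, Rac2, Hvcn1, Rac1, Ncf1, Cat and Ncf4, and 4 of the 8 pairs overlapped: Sod2 with Cybb, Rac2 with Hvcn1, Ncf1 with Cat, and Cat with Ncf4. Cybb thus stood above Sod2, and Hvcn1 above Rac2, in the library labelled Kdm2b-KO, while in the WT library counting error did not separate either pair.

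The 2 genes of the membrane core lay on opposite sides of 0. Cybb (ENSMUSG00000015340, chromosome X, 9435252 to 9487771, GRCm38), which encodes the electron-carrying subunit, stood at 268 FPKM in the library labelled Kdm2b-KO and 213 FPKM in the WT library. Its log2 ratio was 0.33, with an exact Clopper-Pearson 95% counting interval of the plain FPKM ratio from 0.31 to 0.36. Cyba (ENSMUSG00000006519, chromosome 8, 122424776 to 122432930), which encodes the smaller partner that stabilises the core, stood at 924 FPKM in the library labelled Kdm2b-KO and 1053 FPKM in the WT library. Its log2 ratio was -0.19 (-0.22 to -0.16), so both intervals left out 0. The quotient of Cyba over Cybb was 3.44 in the library labelled Kdm2b-KO and 4.96 in the WT library, and it does not depend on how the libraries are scaled. Subtracting what genes of like transcript length and GC content showed left Cybb at 0.31 and brought Cyba to 0.05, on the other side of 0.

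The RefSeq promoters (GRCm38.p6) of Cybb, Cyba and Sod2 are shown because these are the 3 most abundant members and span the CG content found in the set. Each runs from 250 bases before to 50 bases after the RefSeq start, and capitals mark CG dinucleotides, the letters that the zinc finger of the Kdm2b protein reads. Cybb lies at chrX:9469275-9469574 on the minus strand, Cyba at chr8:122432891-122433190 on the minus strand and Sod2 at chr17:13007589-13007888 on the plus strand.
Cybb: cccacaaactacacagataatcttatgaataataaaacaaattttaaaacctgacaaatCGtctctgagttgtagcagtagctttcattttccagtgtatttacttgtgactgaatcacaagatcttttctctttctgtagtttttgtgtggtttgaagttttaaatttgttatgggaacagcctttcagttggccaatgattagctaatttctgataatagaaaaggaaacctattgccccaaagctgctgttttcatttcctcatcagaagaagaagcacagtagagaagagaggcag
Cyba: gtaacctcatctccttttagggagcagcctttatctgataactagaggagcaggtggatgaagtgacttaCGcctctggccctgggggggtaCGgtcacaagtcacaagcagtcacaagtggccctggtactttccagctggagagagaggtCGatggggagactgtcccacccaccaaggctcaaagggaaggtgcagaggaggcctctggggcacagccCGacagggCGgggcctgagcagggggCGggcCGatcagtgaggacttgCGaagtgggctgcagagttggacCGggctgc
Sod2: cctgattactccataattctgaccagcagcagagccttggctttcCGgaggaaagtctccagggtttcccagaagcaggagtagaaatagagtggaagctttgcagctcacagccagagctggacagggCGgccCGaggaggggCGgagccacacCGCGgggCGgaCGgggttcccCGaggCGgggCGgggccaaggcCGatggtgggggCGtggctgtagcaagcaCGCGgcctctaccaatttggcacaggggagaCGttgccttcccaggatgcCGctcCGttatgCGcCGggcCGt

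A promoter was listed for 5 of the 9 members. The Cybb promoter held 1 CG, the Ncf1 promoter 3, the Cyba promoter 9, the Cat promoter 11 and the Sod2 promoter 21, against a median of 7 over 32851 promoters of that length. A count at least as high as that of Sod2 was found in 24.8% of promoters, and one at most as high as that of Cybb in 14.1%. Classes were set among genes past the floor with a listed promoter, not among all promoters. The CG-poor class (the lowest quartile, 0 to 14 CG) held 1880 genes, the middle 3271 and the CG-rich class (the highest quartile, 29 to 65) 1843. Of the 5 members, 4 fell in the CG-poor class, 1 in the middle and 0 in the CG-rich class. Cyba and Cat are in the CG-poor class although they lie above the median of 7 over all promoters. The median log2 ratio was 0.04 over the 1880 genes of the CG-poor class and 0.18 over the 1843 genes of the CG-rich class. Transcript length moved with it, at a median of 2739 bases in the CG-poor class and 3801 bases in the CG-rich one, and its part in the difference was not tested. The letters GAGGAA, a core bound by the myeloid factor PU.1, were searched on both strands. They occur in 28.3% of all promoters and were found in those of Cybb, Sod2 and Cat and not in those of Cyba and Ncf1. In Cybb the match is on the reverse strand, after the start.

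The cytosolic subunit genes in the set, Ncf1 and Ncf4, were both above 0. Ncf1 (ENSMUSG00000015950, chromosome 5, 134220053 to 134229625) encodes the organizer that carries the others to the membrane once it is phosphorylated. It stood at 37.8 FPKM in the library labelled Kdm2b-KO and 31.9 FPKM in the WT library, a log2 ratio of 0.24 (0.17 to 0.32). Ncf4 (ENSMUSG00000071715, chromosome 15, 78244801 to 78262580), whose protein binds a phosphoinositide of the phagosome, stood at 31.2 FPKM in the library labelled Kdm2b-KO and 29.5 FPKM in the WT library. Its log2 ratio was 0.08 and its interval, -0.04 to 0.20, included 0, so a difference was not detectable at this depth. With the median of all genes brought to 0 its log2 ratio was -0.045. The quotient of Cybb over Ncf1 was close between the libraries, at 7.09 in the library labelled Kdm2b-KO and 6.66 in the WT library.

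Both Rac genes were expressed, with Rac2, the blood-cell form that serves the oxidase in neutrophils, above Rac1, the form found in most tissues. Rac2 (ENSMUSG00000033220, chromosome 15, 78559167 to 78572783) stood at 83.2 FPKM in the library labelled Kdm2b-KO and 89.9 FPKM in the WT library, a log2 ratio of -0.11 (-0.16 to -0.06). Rac1 (ENSMUSG00000001847, chromosome 5, 143503634 to 143528036) stood at 49.5 FPKM in the library labelled Kdm2b-KO and 44.7 FPKM in the WT library, a log2 ratio of 0.14 (0.09 to 0.20). These log2 ratios were small and opposite in sign, both intervals included 0 when fragments were estimated from the shortest transcript, and the quotient of Rac2 over Rac1 was 1.68 in the library labelled Kdm2b-KO and 2.01 in the WT library. Rac3 lay under the floor, at 0.183 FPKM in the library labelled Kdm2b-KO and 0.856 FPKM in the WT library, from about 5 and 25 fragments.

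Hvcn1 (ENSMUSG00000064267, chromosome 5, 122206804 to 122242297), the proton channel gene, had the highest log2 ratio of the 9. It stood at 113 FPKM in the library labelled Kdm2b-KO and 86.9 FPKM in the WT library, a log2 ratio of 0.37 (0.33 to 0.42). Its quotient over the core gene Cybb was almost equal between the libraries, at 0.420 in the library labelled Kdm2b-KO and 0.409 in the WT library.

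The members that remove superoxide and peroxide were level or slightly lower. Sod2 (ENSMUSG00000006818, chromosome 17, 13006846 to 13040063), the mitochondrial manganese superoxide dismutase and a known NF-kappaB target, stood at 211 FPKM in the library labelled Kdm2b-KO and 216 FPKM in the WT library. Its log2 ratio was -0.04 (-0.06 to -0.02), and 0.05 with the libraries scaled to equal FPKM totals, so its direction turned with the scaling. Cat (ENSMUSG00000027187, chromosome 2, 103453849 to 103485160), the peroxisomal catalase, stood at 27.5 FPKM in the library labelled Kdm2b-KO and 31.2 FPKM in the WT library, a log2 ratio of -0.17 (-0.27 to -0.09). It stayed below 0 under all 6 alternatives of scaling, pseudocount and trend removal. The quotient of Sod2 over the cytosolic dismutase gene Sod1 was 1.32 in the library labelled Kdm2b-KO and 1.20 in the WT library.

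The counting intervals left out 0 for 8 of the 9 members when fragments were estimated from the longest annotated transcript, and for 5 when they were estimated from the shortest. With the shortest, Rac1, Rac2 and Sod2 joined Ncf4 in including 0. These intervals cover counting error and not the spread between animals. With 1180 to 34603 fragments behind a value, as estimated from the longest transcript, a small difference is enough to leave out 0. Each interval is set against 0 and not against the all-gene median of 0.10. The share of all genes whose interval leaves out 0 is not given here, so these counts are no result about the members. No member overlapped an annotated gene on its own strand, and 4 overlapped one on the opposite strand: Cyba (Gm20388), Ncf1 (Gtf2ird2), Rac1 (Daglb and Gm42502) and Hvcn1 (Tctn1). The sources used here do not say whether counting used the strand, so these 4 values may hold reads of their partners.

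The log2 ratio moved with transcript length over all genes. Among 20 bins of nearly equal size the median was -0.27 for the shortest transcripts, of 132 to 868 bases, and 0.29 for the longest, of 7554 to 123179 bases. Cyba, with a longest transcript of 744 bases, fell in the shortest bin and lay 0.08 above its median. Cybb, of 4752 bases, lay 0.12 above the median of its bin. By length alone the core genes were thus on the same side of their bins, although on opposite sides of 0; with GC content also taken out, Cyba (0.05) lay below the all-gene median of 0.10 and Cybb (0.31) above it. Hvcn1 lay 0.27, Ncf4 0.20 and Ncf1 0.14 above their bins' medians, and Rac1 was level with its own. Differences from the bin median were -0.30 for Sod2, -0.23 for Cat and -0.21 for Rac2.

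**Figure D2:**
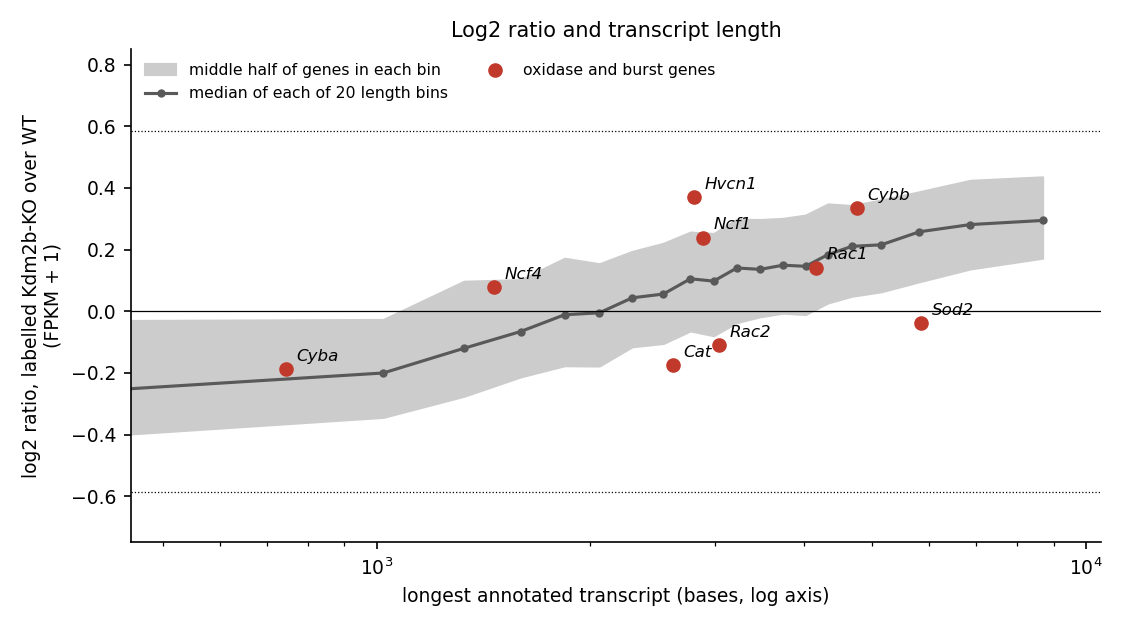
Log2 ratio of the library labelled Kdm2b-KO over the WT library (FPKM + 1) against the longest annotated transcript (bases, log axis); the line joins the medians of 20 length bins of genes, the band runs between the quartiles of each bin, and dotted lines mark 1.5-fold. Cyba and Cybb both lie slightly above the line of medians, and Sod2, Cat and Rac2 lie below it.

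Genes that assemble, prime or regulate the oxidase lay near all genes, of which 63.2% were above 0. Of 28 listed, 23 passed the floor, 17 of them above 0 and 6 below. Their median was 0.18, against 0.10 over all genes, and 0.13 against 0.10 after the length and GC trend was taken out. The 2 at least 1.5-fold higher were Mapk14 and Pik3cg, and 0 were 1.5-fold lower. Mapk14, a MAP kinase that can phosphorylate the organizer subunit, stood at 47.4 FPKM in the library labelled Kdm2b-KO and 15.8 FPKM in the WT library (log2 ratio 1.53), and it overlaps another gene model on its own strand, which makes its value uncertain. Pik3cg, the catalytic subunit of a phosphoinositide kinase, stood at 2.42 FPKM in the library labelled Kdm2b-KO and 1.23 FPKM in the WT library (0.61, or 0.48 with the trend removed, which is under 1.5-fold). With the median of all genes brought to 0, 1 of this list was 1.5-fold higher. The Rac exchange factor gene Prex1 (log2 ratio 0.46, or 0.16 with the trend removed), which overlaps a small gene model on its own strand, and Sirpa (0.41, or 0.31), a receptor that restrains phagocytes, came next. Cybc1, whose protein is needed for the core heterodimer to form, stood at 3.76 FPKM in the library labelled Kdm2b-KO and 3.44 FPKM in the WT library. Nrros, whose protein favours the loss of the Cybb protein, stood at 3.75 FPKM in the library labelled Kdm2b-KO and 5.21 FPKM in the WT library (-0.39).

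Cybb was the one catalytic gene of its enzyme family past the floor. All 9 listed genes of the other NOX and DUOX enzymes and their partners were under it, with Nox3, Noxa1, Duox1 and Duox2 at 0 in both libraries. Their summed level was 0.140 FPKM in the library labelled Kdm2b-KO and 0.0911 FPKM in the WT library. Of 10 other oxidant-producing enzymes, 5 passed the floor and 0 were 1.5-fold apart. Nos2, the inducible nitric oxide synthase, stood at 22.2 FPKM in the library labelled Kdm2b-KO and 15.4 FPKM in the WT library (log2 ratio 0.50). Maoa, a mitochondrial amine oxidase, stood at 7.10 FPKM in the library labelled Kdm2b-KO and 9.79 FPKM in the WT library (-0.41).

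Of 23 genes that remove superoxide and peroxide, 22 passed the floor, 8 of them above 0 and 14 below, beside the 63.2% of all genes above 0. The median was -0.13, or -0.07 after the length and GC trend was taken out. At 1.5-fold, 1 was lower as reported. With the median of all genes brought to 0, 2 of this list were 1.5-fold lower, and its median was -0.23. The 1 at least 2-fold apart was Gpx1, the cytosolic glutathione peroxidase, at 51.1 FPKM in the library labelled Kdm2b-KO and 106 FPKM in the WT library. Its log2 ratio was -1.04 (-1.15 to -0.97), from about 1469 and 3110 fragments, and -0.84 with the trend removed, which is under 2-fold. Txn1, thioredoxin, stood at 724 FPKM in the library labelled Kdm2b-KO and 1043 FPKM in the WT library (-0.53, or -0.22 with the trend removed). Gpx4, which reduces lipid peroxides, had a log2 ratio of -0.44 (-0.28 with the trend removed), and the peroxiredoxin gene Prdx1 had one of -0.39 (-0.24). Their longest transcripts have 1072 bases in Gpx1, 1051 in Txn1, 995 in Gpx4 and 2294 in Prdx1.

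Genes for NADPH supply and the transcription factors known for these genes went both ways, and 1 of each list was 1.5-fold apart. Of 17 NADPH-supplying genes, 14 passed the floor, 7 of them above 0 and 7 below. H6pd, which makes NADPH in the endoplasmic reticulum, was the 1 at least 1.5-fold higher, at 10.1 FPKM in the library labelled Kdm2b-KO and 6.20 FPKM in the WT library (log2 ratio 0.63, or 0.42 with the trend removed, which is under 1.5-fold). The folate enzyme genes Mthfd1 (0.50) and Mthfd2 (0.32) and the pentose phosphate gene Pgls (-0.29) came next, of which Mthfd2 and Pgls overlap another gene on their own strand. G6pdx, the first enzyme of the pentose phosphate pathway, stood at 33.0 FPKM in the library labelled Kdm2b-KO and 36.5 FPKM in the WT library. Of 17 transcription factors, 13 passed the floor, with a median of 0.11 and 1 at least 1.5-fold higher, Hoxb4, at 3.02 FPKM in the library labelled Kdm2b-KO and 1.61 FPKM in the WT library. With the median of all genes brought to 0, 0 genes of either list were 1.5-fold apart. Nfkb1, an NF-kappaB subunit gene that overlaps a gene model on its own strand, stood at 26.6 FPKM in the library labelled Kdm2b-KO and 18.1 FPKM in the WT library (log2 ratio 0.53). Rela, its partner, stood at 48.7 FPKM in the library labelled Kdm2b-KO and 38.4 FPKM in the WT library (0.34, or 0.20 with the trend removed). Cebpa, a myeloid factor, had a log2 ratio of 0.34 at low levels, 1.26 FPKM in the library labelled Kdm2b-KO and 0.781 FPKM in the WT library. Any part of the listed factors in the members' values was not tested. Spi1, which encodes PU.1, stood at 66.7 FPKM in the library labelled Kdm2b-KO and 69.0 FPKM in the WT library. Irf8, another activator of Cybb, stood at 16.4 FPKM in the library labelled Kdm2b-KO and 19.9 FPKM in the WT library (log2 ratio -0.27).

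**Figure D3:**
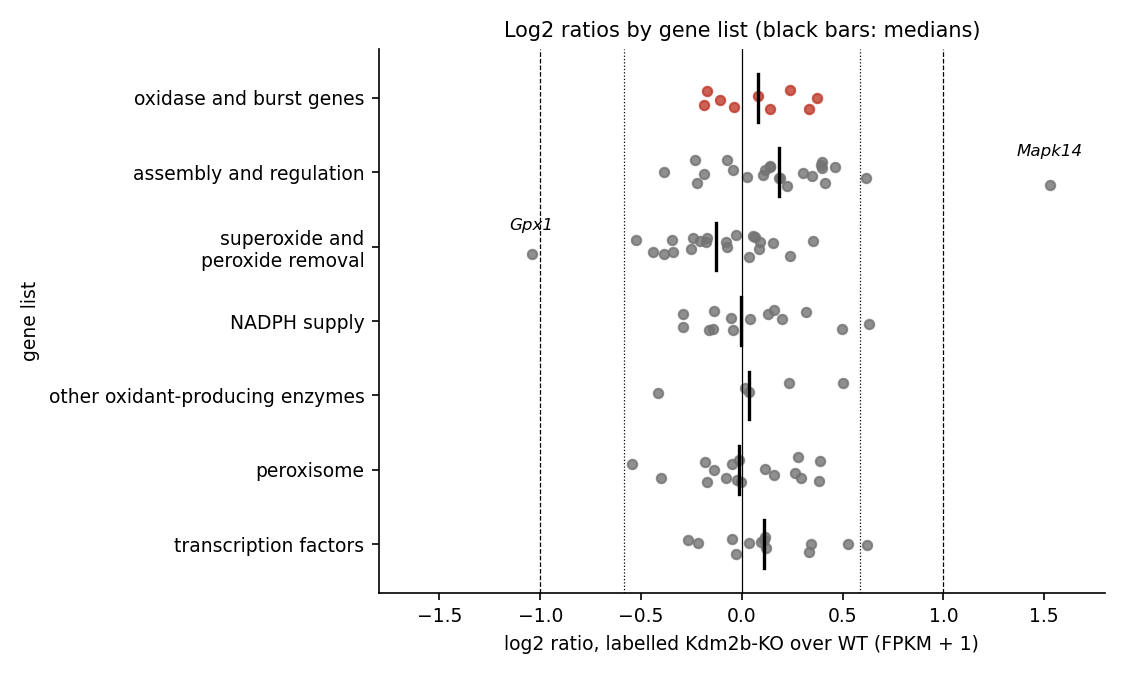
Log2 ratio of the library labelled Kdm2b-KO over the WT library (FPKM + 1) for genes past the floor in the 9 genes described and in 6 pathway lists, 1 point per gene with vertical jitter; black bars are medians, and dotted and dashed lines mark 1.5-fold and 2-fold. The 9 oxidase and burst genes all lie inside the dotted lines, and Mapk14 and Gpx1 are the points of these lists beyond 2-fold.

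Of 10 macrophage markers, 9 passed the floor, 5 of them above 0 and 4 below, and the sum was 14209 FPKM in the library labelled Kdm2b-KO and 11925 FPKM in the WT library. Most of that sum was Lyz2, at 11409 FPKM in the library labelled Kdm2b-KO and 8945 FPKM in the WT library (log2 ratio 0.35). Adgre1, which encodes F4/80, had a log2 ratio of 0.35, Cd68 one of 0.03, Cd14 one of -0.33 and Timd4, a marker of resident cells, one of -0.61. Neutrophils and B cells also carry the oxidase, and in bulk RNA fewer cells of a type and less RNA per cell cannot be told apart. Of 12 neutrophil markers, 3 passed the floor, Ly6g, Mpo and Retnlg were at 0 in both libraries, and the sum was 24.3 FPKM in the library labelled Kdm2b-KO and 22.1 FPKM in the WT library. Of 8 B cell markers, 3 passed the floor, 2 of them (Igkc and Ighm) at least 2-fold lower. Igkc overlaps a gene model on its own strand. The third, Cd22, was level, at 5.57 FPKM in the library labelled Kdm2b-KO and 5.32 FPKM in the WT library (log2 ratio 0.06). The sum of the B cell markers was 8.44 FPKM in the library labelled Kdm2b-KO and 32.6 FPKM in the WT library. Of 9 T and NK cell markers, 1 passed the floor (Lck, at least 2-fold lower) and 5 were at 0 in both libraries, and the sum was 2.76 FPKM in the library labelled Kdm2b-KO and 6.87 FPKM in the WT library. Of 9 eosinophil and mast cell markers, 1 passed the floor and 2 were at 0 in both libraries, and the sum was 1.63 FPKM in the library labelled Kdm2b-KO and 3.56 FPKM in the WT library. All 13 mesothelial and stromal markers passed the floor, 7 of them above 0 and 6 below, with a median of 0.02. The collagen genes Col1a1, Col1a2 and Col3a1 were at least 2-fold higher, while Pdgfra (log2 ratio 0.58), Dcn (0.02) and Lum (-0.35) were not. Mesothelial markers went both ways, with Wt1 at 0.44, Upk3b at 0.35, Krt19 at -0.31 and Msln at -0.50. The sum of the list was 427 FPKM in the library labelled Kdm2b-KO and 387 FPKM in the WT library. The part of these cells in the members' values was not tested.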

How the data were processed

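Per the file headers, the authors deposited 1 FPKM value for each Ensembl gene in either library. HISAT2 2.0.4 and StringTie 1.3.0 are listed, beside edgeR and the builds GRCm38.p4 and mm10, in the submitters' processing notes. Their roles, the annotation release and any filter were not given in the sources used here. No count test was run here.

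Symbols, positions and transcript lengths came from a GENCODE annotation of GRCm38, and 34267 of 34745 IDs had a symbol. Ratios used FPKM + 1 and a floor of 1 FPKM on the mean of both libraries. Depth was read from genes with 1 transcript and at most 20 fragments: FPKM times length was a whole multiple of a step, within 0.02, for 92.6% of 1518 genes in the library labelled Kdm2b-KO and 92.2% of 1445 in the WT library. Fragments were estimated from the longest transcript. Intervals are at 95% and cover counting error alone. Reads without molecular identifiers are not independent molecules, so the intervals may be too narrow even for that error. The trend was removed by bin medians over 20 length and 20 GC bins. Motifs and CG were counted in RefSeq promoters. The calculations were tested on simulated data and run in Python 3.11.15 with SciPy 1.17.1.

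The members, the 8 pathway and 6 marker lists and the fold rules were chosen with earlier results of these data known. Named were all members, Kdm2b, Rac3, genes at 0 in both libraries and, per list, up to 4 genes past the floor with the largest absolute log2 ratio; a few genes and 1 pathway list under this rule are not reported here. Sod1, Cybc1, Nrros, G6pdx, Spi1, Irf8, Cd68, Msln, Wt1, Upk3b, Krt19, Dcn and Lum were chosen after their values were seen. With 2 libraries a pattern is 1 ratio, so no genes were named for likeness of pattern. Alternatives were pseudocounts of 0.1 and 5, a floor of 5 FPKM or none, 3 scalings and removal of the trend.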

Additional observations from a re-analysis of the deposited data

How the results depend on the processing

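The counts of members at least 2-fold or 1.5-fold apart were 0 in either direction under all 8 alternatives. The members' median log2 ratio, 0.08 as reported, moved to -0.045 with the libraries scaled to a median log2 ratio of 0; under the other 7 it lay between 0.02 (equal upper quartiles) and 0.17 (equal FPKM totals). Single members changed sign in 3 cases: Ncf4 with the median of all genes at 0 (-0.045), Sod2 with equal FPKM totals (0.05) and Cyba with the length and GC trend removed (0.05). Over all genes, counts at 2-fold were 78 higher and 92 lower as reported, 44 and 113 with the median at 0, 96 and 76 with equal totals, 174 and 137 with a pseudocount of 0.1, and 14 and 33 with a pseudocount of 5. By the estimate from the longest transcript, each member had at least 1180 fragments, and a shorter transcript would give fewer. The spread between animals was not measured. Leaving out a replicate was not possible with 1 library per group. No paired analysis was possible because each group has 1 library and the result comes from no test.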

Other observations

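Of genes of the peroxisome, the organelle that holds catalase, 17 of 22 passed the floor, 7 of them above 0 and 10 below, and 0 were 1.5-fold apart (median -0.01). With the median of all genes brought to 0, 1 was 1.5-fold lower. Pex7, an import receptor that overlaps a gene model on its own strand, stood at 5.27 FPKM in the library labelled Kdm2b-KO and 7.27 FPKM in the WT library (-0.40). Pex19, which handles peroxisomal membrane proteins, stood at 7.86 FPKM in the library labelled Kdm2b-KO and 5.77 FPKM in the WT library (0.39).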
